A study of Mus musculus with 9 samples.

Results

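The mouse miRNA family that shares the seed of miR-148 has 3 members, miR-148a (mmu-mir-148a), miR-148b (mmu-mir-148b) and miR-152 (mmu-mir-152). Their rows were found in the count table by hairpin or mature name, with no use of the measured values. They took 44 of 6414 rows, namely 38 sequence tags listed under one of the 3 hairpins and 6 rows of a mature name. A tag is a read sequence of at most 20 nt with its start in the hairpin, and the tags were summed by member and arm, a start below position 35 giving the 5p arm and any later start the 3p arm. B16F1 cells, an established mouse melanoma line, were compared in 3 groups of 3 libraries, each from an independent culture. The groups were control cells without either agent, cells given 5.0 mM L-Tyr (L-tyrosine, the amino acid from which melanin is made), and cells given 5-Brd-2′-dU at 2.5 µg/mL (bromodeoxyuridine, a thymidine analogue that enters DNA), each exposure lasting 72 h. The labels name no genetic change in any group, and all groups are cultures of a single line.

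A miRNA guides the Argonaute protein to messenger RNAs through its seed, bases 2 to 8 from the 5′ end, and lowers their stability and translation. Members of 1 seed family can therefore share targets. The family is known for repressing the DNA methyltransferase Dnmt1, and in melanocytic cells for acting on Mitf, the transcription factor that drives the pigment enzymes Tyr, Tyrp1 and Dct. The comparisons asked how its members stood when B16F1 cells were given an agent that favours pigment, L-Tyr, or one that lowers it, 5-Brd-2′-dU.

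The mature 3p sequences, from RefSeq and with the seed in capitals, are shown because the seed defines the family and because the bases after it tell the members apart.
miR-148a-3p: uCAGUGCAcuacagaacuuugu
miR-148b-3p: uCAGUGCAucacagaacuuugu
miR-152-3p: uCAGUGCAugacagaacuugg
The seed CAGUGCA was held by exactly these 3 of 1679 mature mouse miRNAs in the RefSeq table. Counted from the 5′ end, miR-148b-3p differed from miR-148a-3p by U9C and C10U, and from miR-152-3p by C10G and U20G within the 21 bases that both have. The latest start of any member tag lay 6 bases inside the mature sequence, so that each 3p tag covered positions 9 and 10. Of the 38 member tags, 0 were also listed under another hairpin, and the counts of the members were not shared among them.

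The 5p arms are less alike, with 2 different seeds among the 3 members.
miR-148a-5p: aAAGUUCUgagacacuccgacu
miR-148b-5p: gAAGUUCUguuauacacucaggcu
miR-152-5p: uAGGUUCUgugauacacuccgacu

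The 3 hairpins lie on different chromosomes. In NCBIM37 (mm9), the build that the labels give, Mir148a is at chr6:51219811-51219909 on the minus strand, outside the host genes looked for, and its 3p sequence is at chr6:51219828-51219849. Mir148b is at chr15:103115556-103115652 on the plus strand, in an intron of 2 of 2 annotated transcripts of Copz1, and its 3p sequence is at chr15:103115616-103115637. Mir152 is at chr11:96711707-96711779 on the plus strand, in an intron of 3 of 5 annotated transcripts of Copz2, and its 3p sequence is at chr11:96711753-96711773. Copz1 and Copz2 encode the zeta subunits of the coatomer coat of Golgi vesicles, so that the expressed hairpins sit in paralogous host genes, in the direction of transcription of the host. Neither hairpin overlapped a host exon.

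The total count was between 144452 and 424122 per library, and the upper limit for a listed 0, taken as 3 counts, was worth between 7.07 and 20.8 CPM (counts scaled to the same total in each library). Such limits cover counting error only. They are by total count, whereas the levels given here are also scaled by the TMM factors explained below, unless stated otherwise. One library stood apart: replicate 3 of 5-Brd-2′-dU had 19.4% of its counts in miR-143-3p, a miRNA of smooth muscle and fibroblasts, against at most 0.732% in the other libraries. There, miRNAs typical of other tissues were over 3 times as high as in each other library for 3 of 3 erythroid, 2 of 2 endothelial, 5 of 7 stromal and 2 of 4 leukocyte arms, but for 0 of 1 hepatic, 0 of 3 neural and 0 of 3 melanocyte-lineage arms. The summed level of the stromal list was 272706 CPM there and at most 7395 CPM elsewhere, and that of the erythroid list 7207 CPM against at most 293 CPM. Replicate 2 of L-Tyr had these highest values elsewhere, and the highest miR-122-5p, the hepatic marker, at 78.2 CPM. For the endothelial list the highest sum elsewhere, 270 CPM, was in replicate 2 of 5-Brd-2′-dU. Of the leukocyte markers miR-142a-3p was listed at 0 in all 9 libraries. miR-150-5p was at 0 in replicate 3 of 5-Brd-2′-dU and at 70.4 CPM in replicate 2 of L-Tyr. The 3 neural arms come from hairpins of the same miRNA, miR-9-5p, and so stand for 1 marker. So do the stromal arms that fell short, from the hairpins of miR-199a-3p (733 and 846 CPM in replicate 3 of 5-Brd-2′-dU). The share of all arms over 3 times as high in that library was not determined. The melanocyte marker miR-211-5p was present in every library, at 6525 to 24616 CPM. Values without this library are given for the fold changes of the members and wherever stated, and the part of those markers in them was not tested.

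miR-148b-3p was the main member. It had 6034 counts in 16 tags over the 9 libraries, against 2685 counts of miR-152-3p in 20 tags and 1 mature-name row, the latter with 6. Ranked by mean CPM in control cells, miR-148b-3p stood at 54 and miR-152-3p at 92 of 523 hairpin arms with counts. Differences between sequences in ligation to the adapters were not measured, so these ranks order counts and not molecules in the cell.

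miR-148a, the founding member of the family, was almost without counts. Its 3p arm was listed at 0 in all 9 libraries, and its 5p arm had 29 counts, all in replicate 3 of 5-Brd-2′-dU and all in 1 tag of 20 nt that began at the mature start (aaagttctgagacactccga). The 29 counts came from the library with the raised stromal, endothelial and erythroid miRNAs, and were 105 CPM there. The 5p arm of miR-148b was also listed at 0 throughout, and the 5p arm of miR-152 had 14 counts in replicate 2 of 5-Brd-2′-dU and 0 elsewhere. A listed 0 thus allows a level of up to 7.07 to 20.8 CPM by total count, without the TMM scaling of the 105 CPM, in a single library.

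For each expressed hairpin nearly all counts came from the 3p arm. The 3p share of miR-148b was 100% in every library. That of miR-152 was 100% in 8 libraries and 96.5% in replicate 2 of 5-Brd-2′-dU. The mean of miR-152 was 98.8% ± 2.01 (SD, n = 3) with 5-Brd-2′-dU and 100% in the other groups. This difference rests on 1 library. The outcome of an exact permutation test was therefore fixed in advance, and it tells nothing about the groups.

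miR-148b-3p was lower in both exposures. Levels are CPM scaled by the TMM factors of edgeR, which adjust the totals for composition. In the 3 control libraries it stood at 3073, 4254 and 4208 CPM, a mean of 3845 ± 669 (SD, n = 3). With L-Tyr it stood at 1952, 1993 and 625 CPM, a mean of 1524 ± 778 (SD, n = 3). With 5-Brd-2′-dU it stood at 767, 2160 and 1873 CPM, a mean of 1600 ± 735 (SD, n = 3). No exposed library reached the level of any control library, with replicate 3 of L-Tyr and replicate 1 of 5-Brd-2′-dU lowest in their groups. Of the 252 arms tested in both comparisons with control, 11 (4.37%) had all 6 exposed libraries below all 3 of control. By comparison, 23 of 259 arms (8.88%) were lower without overlap with L-Tyr. The mean with L-Tyr was 0.396 times that of control cells and the mean with 5-Brd-2′-dU 0.416 times. The groups stayed apart in the same direction when the levels were scaled by total count or by the size factors of DESeq2. In bulk RNA, fewer cells with a miRNA and less of it per cell cannot be told apart.

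**Figure D1:**
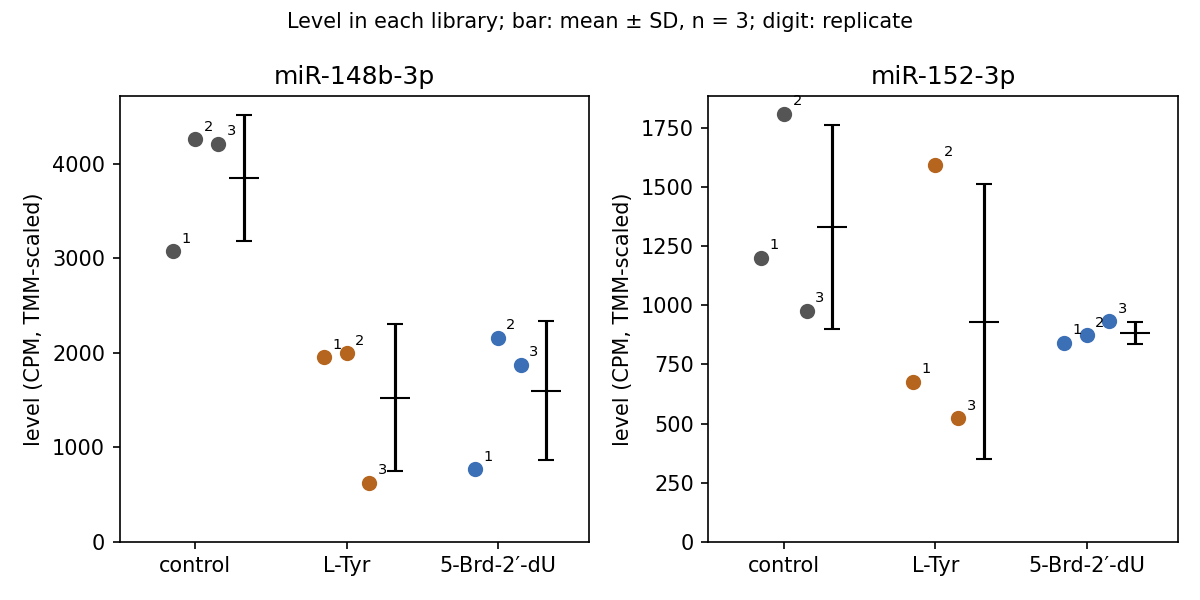
Level of miR-148b-3p (left) and miR-152-3p (right) in each library, in CPM scaled by TMM, with points for the libraries of the control, L-Tyr and 5-Brd-2′-dU groups, digits for the replicate, and bars for the mean ± SD (n = 3). The exposed libraries of miR-148b-3p sit between 625 and 2160 CPM, all below the lowest control library at 3073 CPM, while those of miR-152-3p reach into the range of the controls with L-Tyr.

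These differences did not pass the threshold across the table. In edgeR's quasi-likelihood test on the 6 libraries of a comparison, with Benjamini-Hochberg adjustment over all arms tested, miR-148b-3p had a log2 fold change of -1.40 (SE 0.390, adjusted p = 0.125) for L-Tyr against control. It ranked 12 of 259 arms by p, with an unadjusted edgeR p of 0.00577 and a 95% interval from -2.29 to -0.52. Against control, 5-Brd-2′-dU gave -1.30 on the log2 scale (SE 0.390, edgeR adjusted p = 0.124), ranking 24 of 283 arms, with an unadjusted edgeR p of 0.0109 and a 95% interval from -2.21 to -0.40. Over all arms tested the median log2 fold change was -0.10 with L-Tyr, and 5-Brd-2′-dU gave -0.091. These comparisons share the control libraries, so their directions are not independent of each other.

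The call for L-Tyr depended on the method. By edgeR 0 of 2 member arms tested were called against a background of 6 of 259 arms (2.32%), and 1 of 2 had an unadjusted p under 0.05, as did 13.5% of all arms. By DESeq2, which called 19 of 371 arms with an adjusted p (5.12%), the log2 fold change of miR-148b-3p was -1.41 with an adjusted p of 0.0125, which passed. Without the filter on low counts it was -1.41 in edgeR with an adjusted p of 0.0034, which also passed. For 5-Brd-2′-dU edgeR called 0 of 2 member arms against 9 of 283 arms (3.18%), and 1 of 2 had an unadjusted p under 0.05, as did 19.1% of all arms. DESeq2, which called 28 of 478 arms (5.86%), gave -1.27 there with an adjusted p of 0.0625, and edgeR without the filter -1.25 with an adjusted p of 0.0361. Over 17 alternatives the adjusted p ranged from 0.0034 to 0.324 with L-Tyr and from 0.0361 to 0.391 with 5-Brd-2′-dU, and the log2 fold change stayed negative.

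The single-member test on levels could not reach the threshold. An exact two-sided permutation test of 3 against 3 libraries gave p = 0.1 for miR-148b-3p in both comparisons with control, the smallest p it can give, and 0.2 after Benjamini-Hochberg adjustment over 6 such tests. Leaving out replicate 3 of 5-Brd-2′-dU gave a log2 fold change of -1.35 for that exposure (edgeR, adjusted p = 0.202). Its mean level with 5-Brd-2′-dU was then 1464 CPM. The direction did not rest on the library that stood apart.

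**Figure D2:**
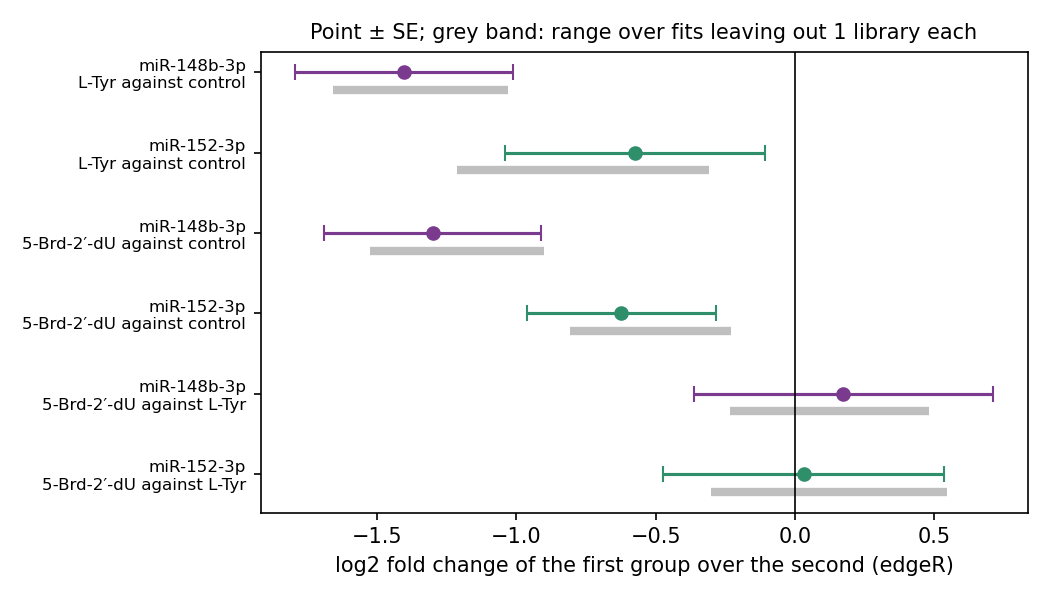
Log2 fold change of miR-148b-3p and miR-152-3p in the 3 comparisons (horizontal axis, first group over second, edgeR), with points and bars for the estimate ± SE and grey bands for the range over fits that left out 1 library each. The bands of miR-148b-3p against control lie between -1.66 and -0.90, those of miR-152-3p between -1.21 and -0.23, and those of 5-Brd-2′-dU against L-Tyr cross 0.

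miR-152-3p was lower on average in both exposures, by less than miR-148b-3p and within the spread of the libraries. In control cells it stood at 1201, 1810 and 977 CPM, a mean of 1329 ± 431 (SD, n = 3). With L-Tyr it stood at 678, 1595 and 522 CPM, a mean of 931 ± 580 (SD, n = 3). With 5-Brd-2′-dU it stood at 842, 875 and 933 CPM, a mean of 884 ± 45.9 (SD, n = 3). Replicate 2 of L-Tyr lay above 2 of the 3 control libraries, so that these groups overlapped. The 5-Brd-2′-dU libraries lay just below the lowest control library, as did 37 of 283 arms (13.1%), but this separation was lost when the levels were scaled by total count or by DESeq2's size factors.

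Neither difference of miR-152-3p passed a test. The log2 fold change against control was -0.58 with L-Tyr (SE 0.466, edgeR adjusted p = 0.670). It was -0.62 with 5-Brd-2′-dU (SE 0.339, edgeR adjusted p = 0.367). Their 95% intervals, from -1.63 to 0.48 and from -1.41 to 0.16, hold 0 as well as the value of miR-148b-3p in the same comparison. The exact two-sided permutation test gave p = 0.4 with L-Tyr and p = 0.1 with 5-Brd-2′-dU, and 0.6 and 0.2 after adjustment over the 6 tests. Single libraries carried much of the value for L-Tyr. It was -1.21 without replicate 2 of L-Tyr (edgeR, adjusted p = 0.164) and -0.31 without replicate 3 of L-Tyr (edgeR, adjusted p = 0.837), and -0.33 when replicate 2 of the controls was left out (edgeR, adjusted p = 0.959). The value for 5-Brd-2′-dU was -0.23 without replicate 2 of the controls (edgeR, adjusted p = 0.874) and -0.61 without replicate 3 of 5-Brd-2′-dU, where the mean level was 859 CPM. Whether miR-148b-3p and miR-152-3p changed by different amounts was not tested.

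The exposures did not separate from each other in either member. For 5-Brd-2′-dU against L-Tyr the log2 fold change was 0.17 (SE 0.536, edgeR adjusted p = 0.980) for miR-148b-3p and 0.03 (SE 0.504, edgeR adjusted p = 0.980) for miR-152-3p. The 95% intervals ran from -1.06 to 1.41 and from -1.13 to 1.19, wide enough to hold a difference of over a doubling either way. By edgeR 0 of 2 member arms were called, against 6 of 252 arms (2.38%), with 0 at an unadjusted p under 0.05 (12.7% of all arms) and 0 called by DESeq2 (16 of 289 arms, 5.54%). The levels of the groups overlapped for both members, while 22 arms (8.73%) were lower without overlap, and the exact two-sided permutation tests gave p = 0.7 and p = 1. The sign of both values turned under scaling by total count. It also turned without replicate 3 of 5-Brd-2′-dU, to -0.006 for miR-148b-3p and -0.081 for miR-152-3p (edgeR).

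Within the family, miR-152-3p took a larger part in some exposed libraries. The share of miR-148b-3p in the family's 3p counts, which needs no scaling between libraries, was 71.9%, 70.2% and 81.2% in control cells. It was 74.2%, 55.6% and 54.5% with L-Tyr, and 47.7%, 71.2% and 66.8% with 5-Brd-2′-dU. The group means were 74.4% ± 5.91 (SD, n = 3), 61.4% ± 11.1 (SD, n = 3) and 61.9% ± 12.5 (SD, n = 3). Replicate 1 of 5-Brd-2′-dU was the single library in which miR-152-3p had more counts than miR-148b-3p, and in each exposure 1 or more libraries lay within the control range. The mean with 5-Brd-2′-dU was 59.4% without replicate 3. The shares were not tested.

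**Figure D3:**
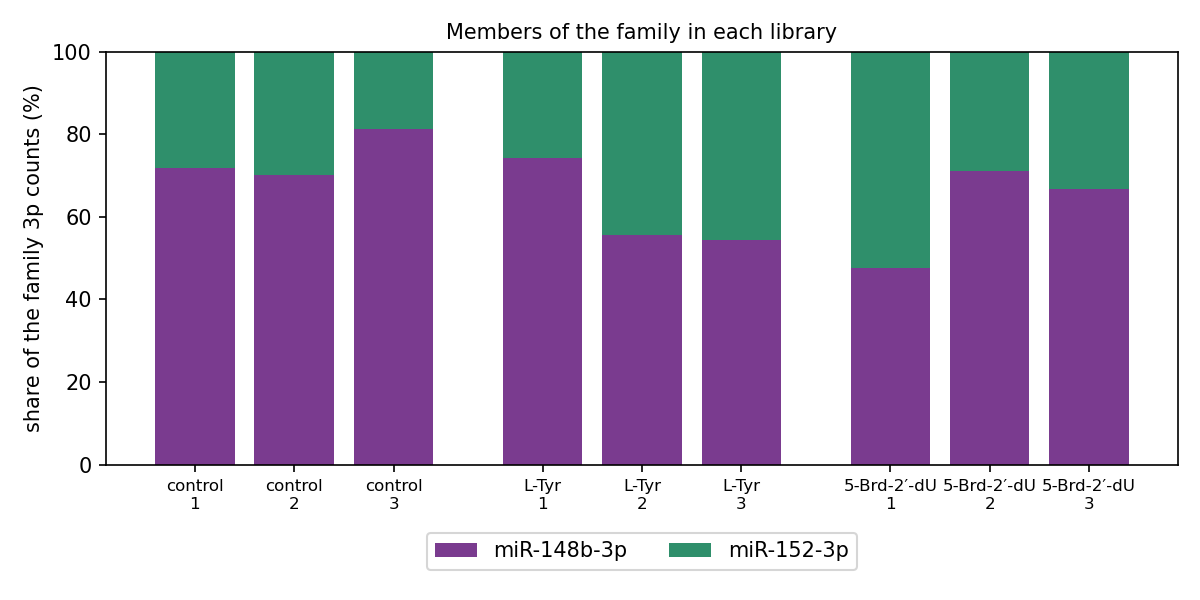
Share of miR-148b-3p (lower part) and miR-152-3p (upper part) in the family's 3p counts, in percent, for each library of the 3 groups. The share of miR-148b-3p is at least 70.2% in the control libraries and between 47.7% and 74.2% in the exposed ones.

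The tags show which ends of the miRNAs were counted. The 3 most frequent tags of miR-148b-3p are given, and of miR-152-3p the most frequent tag and the most frequent one with an added T, since they differ in start and in added bases. Bases that are not in the hairpin are in capitals.
miR-148b-3p, start 3, tail of 1 base: gtgcatcacagaactttgtT
miR-148b-3p, start 2, no tail: agtgcatcacagaactttgt
miR-148b-3p, start 4, tail of 1 base: tgcatcacagaactttgtT
miR-152-3p, start 1, no tail: cagtgcatgacagaacttgg
miR-152-3p, start 2, tail of 1 base: agtgcatgacagaacttggT
The start is the number of bases inside the mature 5′ end. The tags can be set against the hairpins, given from RefSeq with the mature 3p arm in capitals, where the base after the miR-148b-3p arm is a c and that after miR-152-3p a g.
Mir148b: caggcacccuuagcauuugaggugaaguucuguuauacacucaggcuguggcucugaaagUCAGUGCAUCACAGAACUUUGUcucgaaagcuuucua
Mir152: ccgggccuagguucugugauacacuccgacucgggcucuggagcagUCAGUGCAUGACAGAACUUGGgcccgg

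Most tags lacked the first bases of the mature miRNA. Only 3.43% of the miR-148b-3p counts and 10.8% of the miR-152-3p counts were in tags that began at the mature start. Tags that began 2 or more bases inside, and so without a complete seed, held 95.4% and 59.8% of the counts. The same held across the table: of 1995503 counts in tags of other miRNAs that could be placed on a mature sequence, 24.9% began at the mature start or before it and 66.0% began 2 or more bases inside. The templated part of the tags ended at the mature 3′ end or beyond for 93.7% of the miR-148b-3p counts and 87.3% of the miR-152-3p counts. Since the tags are 20 nt at most and the mature miRNAs 21 or 22 nt, no tag could hold a whole one, and the start of a tag here does not tell which seed the RNA had in the cell.

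**Figure D4:**
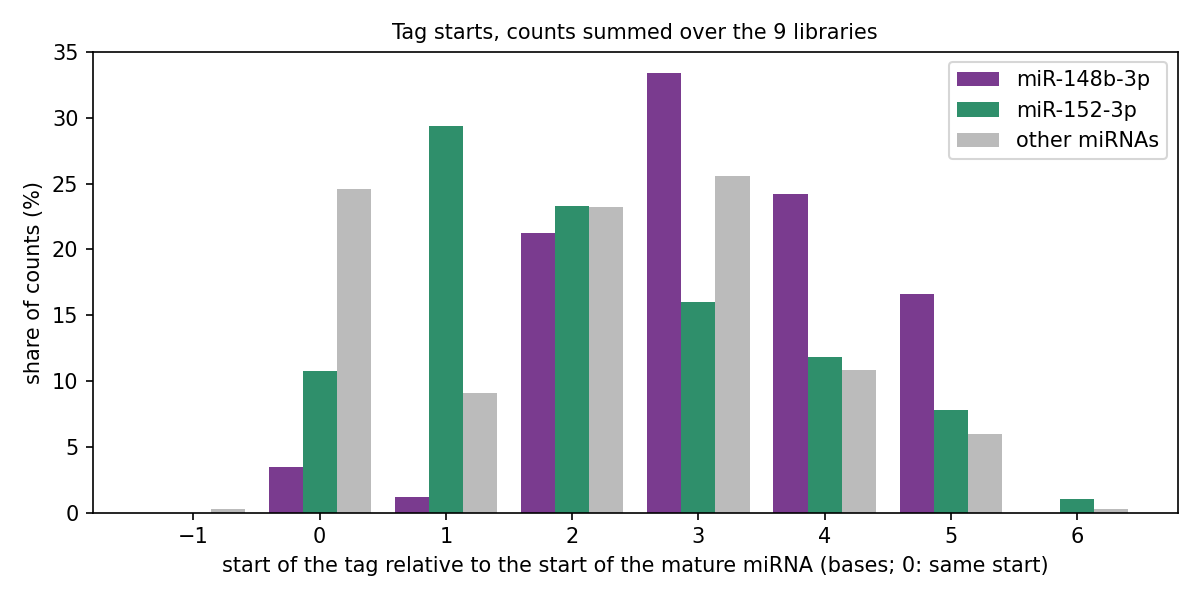
Share of counts (vertical axis, percent) by the start of the tag relative to the mature start (horizontal axis, bases), over all 9 libraries, for miR-148b-3p, miR-152-3p and the tags of other miRNAs. miR-148b-3p is highest at start 3 with 33.4% and miR-152-3p at start 1 with 29.4%. The other miRNAs are also highest at start 3, with 25.6%, and have 24.6% at start 0.

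Start use varied between libraries. Start 3 held 30.2%, 34.5% and 34.1% of the miR-148b-3p counts in control cells and 36.8%, 37.8% and 35.5% with L-Tyr. With 5-Brd-2′-dU it held 69.2%, 20.2% and 40.5%. The L-Tyr libraries all lay above the control libraries, by a mean of 3.81 percentage points, and the 5-Brd-2′-dU libraries scattered on both sides. The exact two-sided permutation test against control gave p = 0.1 with L-Tyr and p = 0.7 with 5-Brd-2′-dU. The smallest of 15 such tests on shares was 0.75 after adjustment. The 15 include those on the 3p share of miR-152, whose outcome was fixed in advance. Without replicate 3 the 5-Brd-2′-dU mean of 43.3% became 44.7%. Counting starts within 1 base as the same turned the difference for L-Tyr to -3.20 percentage points. For miR-152-3p, start 1 held between 17.6% and 38.7% in control cells, between 7.0% and 63.4% with L-Tyr and between 6.9% and 30.3% with 5-Brd-2′-dU, groups that overlapped (exact permutation p = 1 and p = 0.2 against control).

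Tags of miR-148b-3p often ended in an extra T. Tags with 1 or 2 untemplated T at the 3′ end held 47.4% of its counts over the 9 libraries in 4 tags. Those with an untemplated A held 1.77%. For miR-152-3p the shares were 15.0% in 5 tags and 3.43%. Uridylation of the 3′ end is a known modification of mature miRNAs and their precursors. The added T are read here as U in the RNA, and an origin in library preparation or adapter trimming was not tested. Tags have at most 20 nt, so a T after the mature 3′ end could be seen only from a certain start on. That was start 3 in miR-148b-3p and start 2 in miR-152-3p. The U-tailed share therefore also depends on start use. In miR-148b-3p the U-tailed share was 36.0%, 48.2% and 56.2% in control cells, 49.8%, 58.8% and 48.8% with L-Tyr, and 38.3%, 41.7% and 43.0% with 5-Brd-2′-dU. The 3 libraries of 5-Brd-2′-dU lay below the 3 of L-Tyr (means 41.0% and 52.5%, exact permutation p = 0.1, 0.75 after adjustment), and the control libraries spanned both. In miR-152-3p it was 21.3%, 7.94% and 16.2% in control cells, 0%, 11.6% and 13.0% with L-Tyr, and 39.3%, 12.1% and 32.3% with 5-Brd-2′-dU. These groups overlapped as well, with exact permutation p between 0.2 and 0.4. In replicate 1 of L-Tyr the 0% rests on 101 counts of miR-152-3p. Without replicate 3 the 5-Brd-2′-dU means were 40.01% for miR-148b-3p and 25.7% for miR-152-3p. This measure was chosen after the tags had been seen.

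**Figure D5:**
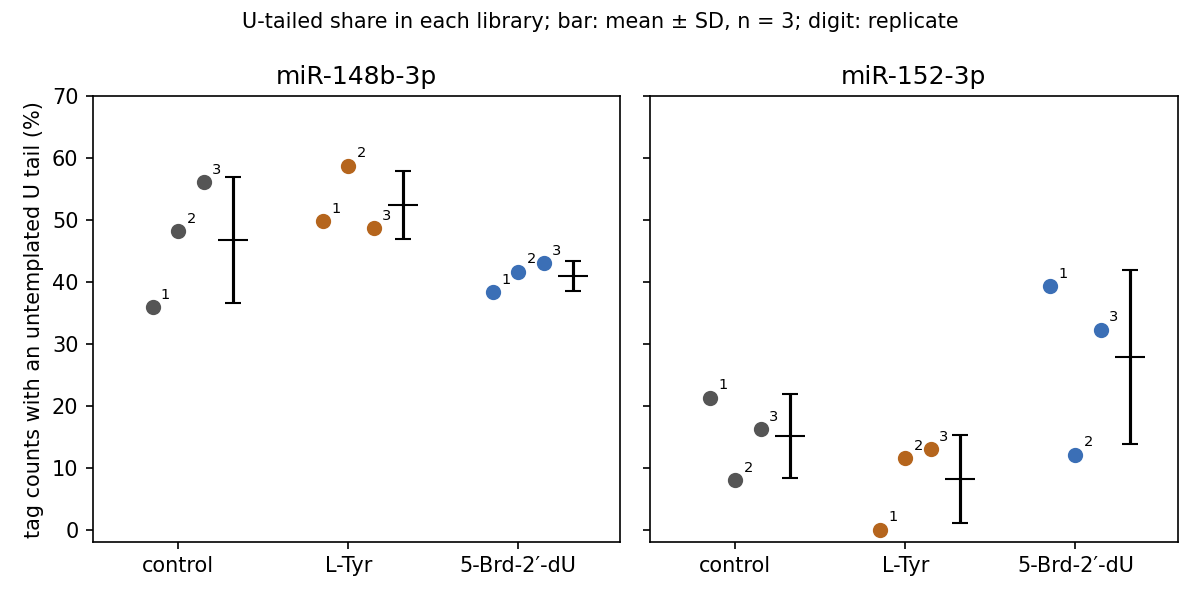
Share of tag counts with untemplated T at the 3′ end, read as a U tail (vertical axis, percent). miR-148b-3p is left and miR-152-3p right, in each library of the 3 groups. Digits give the replicate and bars the mean ± SD (n = 3). The share of miR-148b-3p lies between 36.0% and 58.8% in all libraries and that of miR-152-3p between 0% and 39.3%.

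All tags of miR-148b-3p that could be tested against control had negative log2 fold changes. These were 9 of 9 with L-Tyr and 10 of 10 with 5-Brd-2′-dU, out of 16 tags, where 54.6% and 50.2% of all tags tested were negative. The rest did not pass the filter on low counts. Their medians were -1.41 and -1.28. Without replicate 3 of 5-Brd-2′-dU 11 tags were tested for that exposure, with 10 negative, 1 positive and a median of -1.28. The tags are parts of the same miRNA in the same libraries and are not separate evidence. The tag with start 2 and 20 nt had 173, 407 and 186 counts in control cells, 23, 81 and 24 with L-Tyr and 33, 191 and 82 with 5-Brd-2′-dU. Its log2 fold change was -2.19 (SE 0.520, edgeR adjusted p = 0.165) with L-Tyr and -1.46 (SE 0.473, edgeR adjusted p = 0.242) with 5-Brd-2′-dU. The U-tailed tag with start 3 had 107, 465 and 168 counts in control cells, 14, 160 and 37 with L-Tyr and 46, 101 and 111 with 5-Brd-2′-dU. Its log2 fold changes were -1.41 and -1.37, with edgeR adjusted p of 0.575 and 0.296. Without replicate 2 of L-Tyr the value for that exposure was -2.54, and leaving out other single libraries gave values from -1.69 to -1.03. Without replicate 3 of 5-Brd-2′-dU the 2 tags stood at -1.45 and -1.69 for the latter exposure. In the tag fits edgeR called 1 of 1256 tags (0.0796%) with L-Tyr, 0 of 1488 (0.0%) with 5-Brd-2′-dU and 2 of 1234 (0.162%) between the exposures, and 0 of the member tags. With the replicate number as a block the 1 call with L-Tyr became 0. Unadjusted, 1 of 9 and 2 of 10 tags of miR-148b-3p had a p under 0.05 against control, beside 9.63% and 10.5% of all tags, and DESeq2 called 1 of them with L-Tyr, the tag with start 2 and 20 nt, and 0 with 5-Brd-2′-dU. Over all tags DESeq2 called 2.84% with L-Tyr, 2.52% with 5-Brd-2′-dU and 2.09% between the exposures. Between the exposures 7 of its tags were tested, with 2 negative and 5 positive (48.5% of all tags were negative) and 0 at an unadjusted p under 0.05 (7.13% of all tags).

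The tags of miR-152-3p were mixed. Of 20 tags, 6 were tested against control with L-Tyr, 5 of them negative and 1 positive. With 5-Brd-2′-dU 8 were tested, 5 negative and 3 positive. Of all tags tested, 54.6% with L-Tyr and 50.2% with 5-Brd-2′-dU were negative. edgeR called 0 of the miR-152-3p tags, beside 0.0796% and 0.0% of all tags. DESeq2 also called 0, beside 2.84% and 2.52%. With so few tags called at all, this tells little about miR-152-3p. An unadjusted edgeR p under 0.05 was found for 0 of them, beside 9.63% and 10.5% of all tags. Its most frequent tag had 90, 312 and 39 counts in control cells, 64, 114 and 7 with L-Tyr and 10, 118 and 33 with 5-Brd-2′-dU, with log2 fold changes of -0.64 and -1.53 (edgeR adjusted p = 0.931 and 0.572). Single libraries moved these values. With L-Tyr it was -1.12 when replicate 2 of that group was left out and -0.15 when its replicate 3 was, and -0.12 when control replicate 2 was left out. With 5-Brd-2′-dU it was -2.32 when replicate 2 of that group was left out and -1.39 when its replicate 3 was, and -0.97 when control replicate 2 was left out. Without that replicate 3, 8 tags were tested, 4 negative and 4 positive. Over the whole family, 6 of 38 tags had counts in all 9 libraries and 8 in a single library.

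The arms that followed miR-148b-3p most closely over the 9 libraries were miR-532-5p (Pearson r = 0.91 of log2 CPM), miR-181b-1-5p (r = 0.86) and miR-16-1-5p (r = 0.84), out of 138 arms with a mean count of at least 100. For miR-152-3p they were miR-98-5p (r = 0.82), miR-9-2-5p (r = 0.79) and let-7i-5p (r = 0.77). miR-148b-3p and miR-152-3p themselves correlated at r = 0.68. The 9 points hold 3 groups and share the scaling of each library, so these values are descriptions. Without replicate 3 of 5-Brd-2′-dU the first 3 arms for miR-148b-3p were the same with r between 0.87 and 0.93, whereas those for miR-152-3p became miR-30b-5p (r = 0.89), miR-128-1-3p (r = 0.87) and miR-98-5p (r = 0.82). miR-181b-1-5p, miR-16-1-5p, miR-9-2-5p and miR-128-1-3p share tags with other hairpins of the same or nearly the same mature miRNA, so that their counts are uncertain.

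Other miRNAs linked to Mitf were divided in sign. The list held 12 miRNAs: miR-137-3p, miR-182-5p, miR-340-5p, miR-101a-3p, miR-25-3p, miR-155-5p, miR-218-5p, miR-27a-3p, miR-27b-3p and miR-470-5p, for which an effect on Mitf has been reported or predicted, and the melanocyte miRNAs miR-211-5p and miR-204-5p. Of them 7 passed the filter in each comparison. Against control, 4 were lower and 3 higher with L-Tyr (median log2 fold change -0.13, from -1.25 to 0.81), and 4 lower and 3 higher with 5-Brd-2′-dU (median -0.36, from -0.95 to 2.09). The 2.09 was that of miR-101a-3p, whose counts were 78, 311 and 2246 in the 5-Brd-2′-dU libraries, highest in the one that stood apart. The medians of all arms were -0.10 and -0.091. Without the library that stood apart, 6 were lower and 1 higher with 5-Brd-2′-dU (median -0.66), and miR-101a-3p stood at -0.23. edgeR called 0 of 7 in both, beside 2.32% and 3.18% of all arms, with 2 of 7 at an unadjusted p under 0.05 in each, beside 13.5% and 19.1% of all arms. DESeq2 called 1 of 8 and 2 of 10 arms of the list with an adjusted p, beside 5.12% and 5.86% of all arms. Between the exposures edgeR called 1 of 7, miR-211-5p, beside 2.38% of all arms. DESeq2 called 2 of 6 with an adjusted p, beside 5.54%.

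miR-211-5p lies in an intron of Trpm1, a gene that Mitf drives. Its mean level was 12667 ± 3091 CPM (SD, n = 3) in control cells, 22868 ± 2724 with L-Tyr and 6980 ± 414 with 5-Brd-2′-dU. The log2 fold change of 5-Brd-2′-dU against L-Tyr was -1.63 (SE 0.189, edgeR adjusted p = 0.00681), beside 0.17 for miR-148b-3p. With the replicate number as a block it was -1.63 and no longer passed (edgeR adjusted p = 0.0613), nor did it without replicate 2 of 5-Brd-2′-dU (-1.59, edgeR adjusted p = 0.0548). Without replicate 3 of 5-Brd-2′-dU it was -1.69 (edgeR adjusted p = 0.0129). Against control it was 0.81 with L-Tyr (edgeR adjusted p = 0.108) and -0.89 with 5-Brd-2′-dU (edgeR adjusted p = 0.0809). These calls depended on the method, since both passed in DESeq2. There the values were 0.81 (DESeq2 adjusted p = 0.00962) and -0.87 (DESeq2 adjusted p = 0.0479). miR-27b-3p, which shares tags with miR-27a-3p, stood at 25054 ± 1035 CPM (SD, n = 3) in control cells, 20487 ± 3784 with L-Tyr and 27847 ± 10324 with 5-Brd-2′-dU. Its log2 fold changes against control were -0.33 (edgeR adjusted p = 0.430) and 0.10 (edgeR adjusted p = 0.885). Without replicate 3 of 5-Brd-2′-dU its mean there was 21887 CPM and the latter value -0.17 (edgeR adjusted p = 0.772). miR-182-5p stood at 292 ± 46.9 CPM in control cells, 349 ± 170 with L-Tyr and 237 ± 162 with 5-Brd-2′-dU (SD, n = 3), with edgeR adjusted p of 0.939 and 0.838 against control. Its 5-Brd-2′-dU mean was 144 CPM without replicate 3. miR-470-5p and miR-137-3p were listed at 0 in all 9 libraries.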

How the data were processed

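Small RNA was sequenced from 9 B16F1 cultures, in single reads on TruSeq small RNA libraries. Counts were deposited by the authors as whole reads per tag, from Illumina's app Small RNA 1.0 on BaseSpace, which compared reads of 17 to 35 nt with mm9 and miRBase 21 and asked for full identity. The tags in the table are 13 to 20 nt long, and some hold bases that are not in the hairpin. Not all of them keep to those limits of length and identity, and the reason was not tested. The submitters' processing notes also name FastQC, MultiQC and DESeq2. Of the deposited tables the raw counts alone were used. The authors' normalized counts and their DESeq2 comparisons (fold changes, p-values) were not.

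Tags and mature-name rows were summed by hairpin arm. Each comparison was fitted on its 6 libraries over the whole table with edgeR 4.0.16 in R 4.3.3 (TMM, filterByExpr, quasi-likelihood F test, Benjamini-Hochberg, called under 0.05), once by arm and once by tag. The SE is the size of the log2 fold change divided by the square root of F. The scripts were run on simulated data with less spread between libraries than these data have. That run therefore does not show how the tests behave here. Single levels and shares were compared by exact permutation tests (scipy 1.17.1). Likeness used log2(CPM + 1) and named the 3 arms of highest r per member. Named miRNAs were the members, those arms, the Mitf list and markers. The members and lists were chosen with earlier results of these data known. DESeq2 1.42.0 served as an alternative. Positions are exact matches to NCBIM37, and sequences come from RefSeq (GRCm38.p6).

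Replicate numbers are shared between groups. Deviations from the group means (140 arms) of same-numbered libraries correlated at 0.12, 0.47 and 0.15 for control and L-Tyr. For the other pairs of groups the values lay between -0.36 and 0.28. The labels name no pairing, and these values do not settle whether same-numbered libraries belong together. The main fits and the exact tests took no account of the number. A fit with the number as a block is given as an alternative.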

Additional observations from a re-analysis of the deposited data

How the results depend on the processing

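Against control, the log2 fold changes of both members kept their sign in all 17 alternatives, and that of miR-148b-3p crossed the threshold with DESeq2 (L-Tyr, -1.41) and without the filter on low counts (-1.41 for L-Tyr, -1.25 for 5-Brd-2′-dU). Leaving out 1 library each gave -1.66 to -1.03 (miR-148b-3p, L-Tyr), -1.53 to -0.90 (miR-148b-3p, 5-Brd-2′-dU), -1.21 to -0.31 (miR-152-3p, L-Tyr) and -0.81 to -0.23 (miR-152-3p, 5-Brd-2′-dU). For 5-Brd-2′-dU against L-Tyr the ranges were -0.23 to 0.48 and -0.30 to 0.55. There miR-148b-3p turned to -0.057 by total count. miR-152-3p turned to -0.23 by total count, -0.057 at a mean count of at least 50, -0.078 in the fit of all 9 libraries, -0.066 without tags listed under more than 1 hairpin, -0.042 without mature-name rows and -0.13 with tags of 17 nt or longer.

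In the fit with the replicate number as a block, the log2 fold changes of miR-148b-3p were -1.52 (L-Tyr), -1.41 (5-Brd-2′-dU) and 0.20 (between the exposures), and no call of a member changed. The block left 6 called arms for L-Tyr, 1 for 5-Brd-2′-dU and 0 between the exposures, and 0, 1 and 3 called tags. In 6 of 18 cases a library correlated best with its own number in another group. With 3 libraries per group, numbers without meaning would give the same share on average.

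Counts of called arms moved more. They were 14, 50 and 30 without a filter and 19, 28 and 16 with DESeq2 for L-Tyr, for 5-Brd-2′-dU and between the exposures. For 5-Brd-2′-dU they were 3 by total count and 3 without tags of several hairpins, and between the exposures 3 in the fit of all 9 libraries. Leaving out 1 library gave 0 to 10, 1 to 15 and 0 to 5. Called tags were 11, 85 and 47 without a filter and 49, 43 and 40 with DESeq2. For L-Tyr they were 6 by total count, 0 without the most abundant tag and 8 at a mean count of at least 50. In the fit of all 9 libraries they were 3 for 5-Brd-2′-dU and 1 between the exposures. Leaving out 1 library gave 1 to 2, 0 to 14 and 0 to 3. The causes were not tested. Values without replicate 3 of 5-Brd-2′-dU for the Mitf list, tags and shares, and those of miR-211-5p under the block and without each library, were added after the data had been seen.

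Differences of mean level, 5-Brd-2′-dU against L-Tyr, turned to -74.2 CPM by total count for miR-148b-3p, and leaving out 1 library gave -373 to 493 CPM for it and -253 to 284 CPM for miR-152-3p. Against control they stayed negative, at -2708 to -1872 and -2631 to -1828 CPM for miR-148b-3p and -730 to -158 and -622 to -205 CPM for miR-152-3p. Differences in start use turned with starts within 1 base joined, to -3.20 points (miR-148b-3p, L-Tyr against control), -13.7 (miR-152-3p, L-Tyr against control) and 4.60 (miR-152-3p, 5-Brd-2′-dU against L-Tyr). Leaving out 1 library gave, for miR-148b-3p, 2.43 to 4.59, -2.55 to 21.9 and -6.36 to 18.1 points in the 3 comparisons, and for miR-152-3p -13.1 to 15.1, -20.7 to -9.03 and -29.0 to -0.85 points.

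The spread between libraries was wide, with a root common dispersion of 0.733 to 0.785, and 101 to 1897 counts per library stood behind each 3p level. Scaling by total count moved the median log2 fold change of all arms to 0.06, -0.12 and -0.11.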

Other observations

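The primer list of the study gives the same forward primer for miR-148b-3p and for miR-27b-3p (cggcttcacagtggctaag). Its longest run shared with the mature sequence is 15 bases for miR-27b-3p and 6 bases for miR-148b-3p. The stem-loop primer listed for miR-148b-3p ends in 6 bases that pair with the 3′ end of miR-148b-3p and equally with that of miR-148a-3p, and with 0 bases of miR-152-3p. No RT-qPCR value was analysed here, and whether the list shows the primers as used was not tested.

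In miR-152-3p, 41.6% of the tag counts of replicate 3 of 5-Brd-2′-dU began at the mature start, against 0% and 0.257% in replicates 1 and 2 of the group and at most 21.2% in the other libraries. The cause was not tested.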
